A study of Oryctolagus cuniculus with 18 samples.

Results

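F3, which encodes tissue factor, was followed in the lower abdominal aorta of 9 control and 9 atherosclerotic rabbits as 1 of the 84 genes of interest of a wound healing PCR array that also holds 5 reference genes. F3 was chosen by its level on this array, which was lower in the atherosclerotic group, so its difference between the groups is given as a description and carries no test. The assay was found by its symbol, and its transcript accession carries the same symbol, F3, in the rabbit gene table used for names. All animals were male New Zealand White rabbits that were 11 weeks old at the start. The control group ate chow. The atherosclerotic group had its aorta denuded with a balloon catheter and ate a diet with 0.30% cholesterol for 8 weeks and with 0.15% for a further 12 weeks, so that diet and injury always went together and cannot be told apart. RNA came from pieces of aorta with no cell type separated, each gene was read in 1 well per rabbit, and no plate or batch is named in the labels.

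Tissue factor is a transmembrane receptor for coagulation factor VII and its active form, and this complex starts the extrinsic pathway of blood clotting. In a healthy artery it is found mainly in fibroblasts of the adventitia and in smooth muscle cells, out of contact with the blood, while the endothelium carries little. In plaques it is known from macrophages, foam cells and smooth muscle cells, and inflammatory signals such as TNF, interleukin 1 and ligands of Toll-like receptor 4 can switch it on. Fibrin, the end product of the pathway, is in turn removed by plasmin, which the plasminogen activators PLAT and PLAU release from plasminogen (PLG).

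F3 was read well within the range of the assay. All 18 wells had a Ct (the PCR cycle at which a well crosses the detection threshold, later for less transcript) below the ceiling of 35 cycles, and the latest, 30.65 cycles in atherosclerotic rabbit 4, lay 4.35 cycles before it. The control group had F3 at 25.57 to 28.05 cycles (median 26.02) and the atherosclerotic group at 26.52 to 30.65 cycles (median 28.44). On average F3 crossed the threshold 2.08 cycles later in the atherosclerotic group before any normalization. The mean level of the 5 reference genes differed by 0.04 cycles between the groups, from single genes that moved in opposite directions. ACTA2 crossed the threshold 2.95 cycles later in the atherosclerotic group and ACTB 0.42 cycles later, while the Ct difference was -2.49 cycles for LDHA, -1.07 for GAPDH and -0.21 for LOC100346936. Without atherosclerotic rabbit 20, whose reference level of 19.79 cycles was the earliest, the mean level differed by 0.41 cycles.

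Expressed as the deposited ratio to the 5 reference genes, F3 in the control group was 0.0421 in rabbit 1, 0.0487 in rabbit 13, 0.0637 in rabbit 19, 0.0837 in rabbit 15, 0.0874 in rabbit 3, 0.08875 in rabbit 7, 0.0963 in rabbit 21, 0.1003 in rabbit 9 and 0.115 in rabbit 11. In the atherosclerotic group it was 0.00611 in rabbit 4, 0.00943 in rabbit 20, 0.0123 in rabbit 10, 0.0136 in rabbit 2, 0.0174 in rabbit 8, 0.0252 in rabbit 18, 0.0312 in rabbit 12, 0.0333 in rabbit 6 and 0.0620 in rabbit 14. The groups overlapped through a single atherosclerotic animal. Rabbit 14 lay above control rabbits 1 and 13, and the other 8 atherosclerotic rabbits lay below every control rabbit. On the log2 scale the control rabbits averaged -3.70 ± 0.49 (SD, n = 9) and the atherosclerotic rabbits -5.75 ± 1.04 (SD, n = 9), a difference of -2.04, or a 4.13-fold lower level. Leaving out any 1 rabbit kept this difference between -2.26 and -1.84.

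The F3 ratio spanned 2.73-fold from the lowest to the highest control rabbit and 10.2-fold among the atherosclerotic rabbits, where it was 5.45-fold without rabbit 14 and 6.58-fold without rabbit 4. This difference in spread was not tested. Dixon's criterion found no rabbit far apart from its group in F3.

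**Figure D1:**
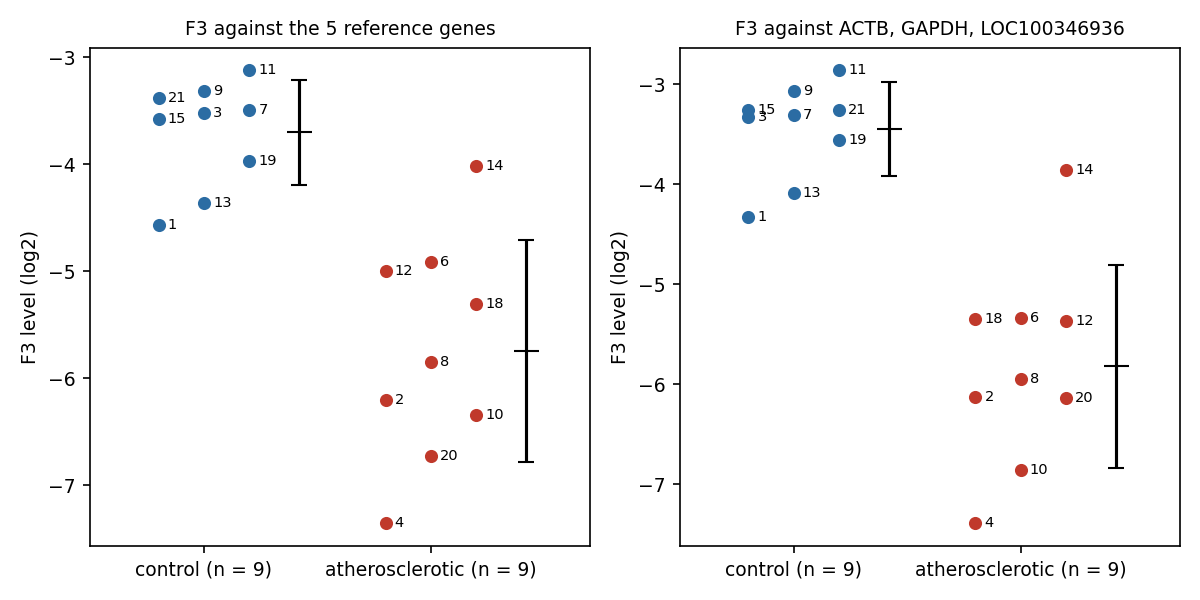
Level of F3 in each rabbit on the log2 scale, against all 5 reference genes (left) and against ACTB, GAPDH and LOC100346936 only (right). Points are rabbits with their numbers, and the bars beside them give the group mean and SD (n = 9). In both panels rabbit 14 is the only atherosclerotic rabbit above the lowest control rabbit.

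The size of the F3 difference depended on the genes it was measured against. ACTA2, the smooth muscle actin of the arterial media, and LDHA, a glycolytic enzyme, are both among the 5. Against ACTB (a cytoskeletal actin of all cells), GAPDH (another glycolytic enzyme) and LOC100346936 (annotated as similar to a non-POU domain octamer-binding protein) only, F3 averaged -3.45 ± 0.47 (SD, n = 9) in control rabbits and -5.82 ± 1.02 (SD, n = 9) in atherosclerotic rabbits. ACTA2 on the same scale averaged 4.08 ± 0.31 and 0.84 ± 1.64 (SD, n = 9 each). For F3 this is a difference of -2.37 on the log2 scale, or a 5.18-fold lower level. Rabbit 14 was again the only atherosclerotic rabbit within the range of the control group.

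Against single reference genes the log2 difference of F3 was -1.67 for ACTB, -2.30 for LOC100346936, -3.15 for GAPDH and -4.58 for LDHA. Against ACTA2 it was 0.87, in the opposite direction. With ACTA2 left out of the 5 it was -2.87, and with LDHA left out -1.49. Measured against the mean of the 62 other genes of interest that were read in every rabbit, it was -2.65. The median log2 difference of all 84 genes of interest moved with the same choices. It was 0.37 with the deposited level and shifted by -0.33 with the level of ACTB, GAPDH and LOC100346936, by -0.82 without ACTA2 and by 0.55 without LDHA. A change of level moves all genes alike, so F3 differed from that median by -2.42 under all 4 of these levels.

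**Figure D2:**
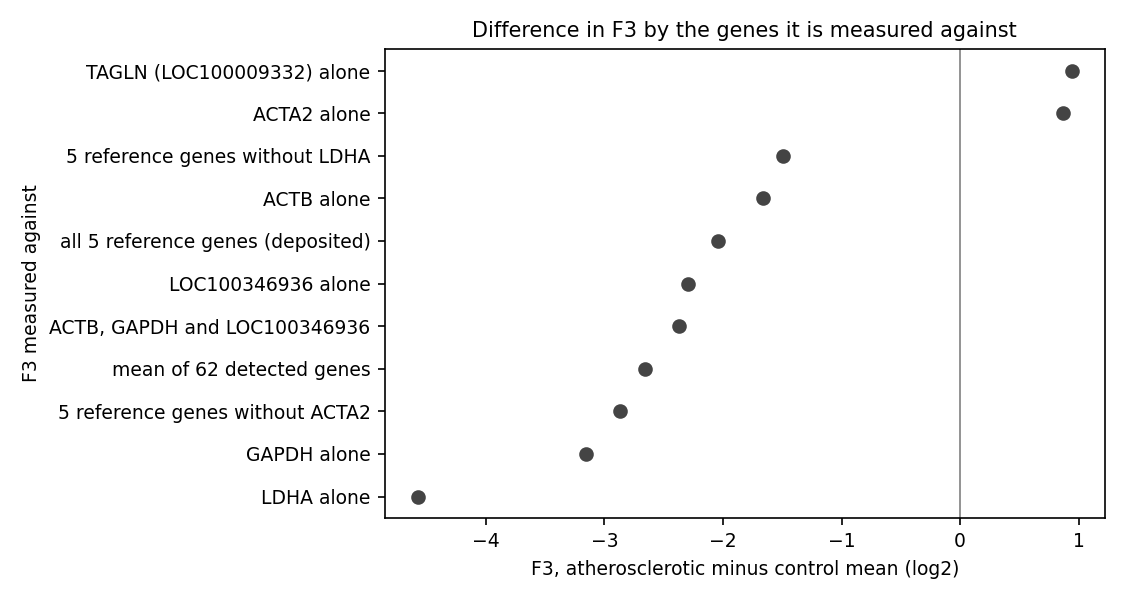
Difference in the mean level of F3, atherosclerotic minus control (log2, n = 9 per group), for each set of genes it was measured against. Values run from -4.58 against LDHA to 0.94 against TAGLN, and lie below 0 for every level except ACTA2 alone and TAGLN alone.

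F3 was next set against the smooth muscle genes of the same rabbits, which needs no reference gene. Transgelin (TAGLN, listed on the array as LOC100009332) binds actin in contractile smooth muscle. Its deposited ratio was 12.3 to 19.4 (median 17.0) in control rabbits against 0.776 to 4.53 (median 1.94) in atherosclerotic rabbits. The ranges did not overlap, and the log2 fold change was -2.99 (standard error 0.29, limma adjusted p = 2.8e-08). F3 relative to TAGLN, on the log2 scale, lay between -8.85 and -7.16 in control rabbits and between -8.17 and -4.94 in atherosclerotic rabbits, with means of -7.69 ± 0.55 and -6.75 ± 1.14 (SD, n = 9 each).

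Relative to TAGLN, F3 was thus 0.94 higher in the atherosclerotic group, a description with no test. It lay above every control rabbit in 5 of the 9 atherosclerotic rabbits, namely 6, 10, 12, 14 and 18, and within the control range in the other 4. Relative to ACTA2, F3 averaged -7.53 ± 0.65 in control and -6.66 ± 1.76 in atherosclerotic rabbits (SD, n = 9 each), with 6 atherosclerotic rabbits above every control rabbit and rabbit 20 below every one. Rabbit 20 had an early Ct for ACTA2, 16.25 cycles, against 21.07 to 24.56 cycles in the other atherosclerotic rabbits, while its TAGLN Ct was 18.83 cycles. Without rabbit 20 the difference relative to ACTA2 was 1.32 and that relative to TAGLN 1.06. In RNA of unseparated aorta, fewer cells of a type and less RNA per cell cannot be told apart.

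Of the 4 cell type marker lists with genes on the array, the summed ratio separated the groups for smooth muscle and macrophages. The summed ratio of the 3 smooth muscle markers on the array (ACTA2, TAGLN and ACTC1) was 25.2 to 36.9 in control rabbits and 1.31 to 13.6 in atherosclerotic rabbits. ACTC1 was at the ceiling in 1 control and 7 atherosclerotic rabbits. The 6 macrophage markers on the array (TLR4, TNF, CTSK, MMP9, PLAUR and IL10) summed to 0.465 to 0.997 in control rabbits and 3.33 to 7.28 in atherosclerotic rabbits. Nearly all of this sum was CTSK, at 0.454 to 0.991 in control and 3.14 to 6.99 in atherosclerotic rabbits. In limma, at an adjusted p under 0.05, 5 of the 6 rose and PLAUR did not pass, where 38.1% of all 84 genes of interest were called higher. TNF was at the ceiling in all 9 control rabbits. Sums of the 5 fibroblast and adventitia markers (COL1A2, COL14A1, DCN, FGF10 and HGF) overlapped between the groups, at 0.628 to 3.37 and 1.31 to 5.64, as did those of the 4 T cell markers, at 0.080 to 0.148 and 0.065 to 0.274. Among the fibroblast markers COL1A2, a collagen chain, rose by 1.61 (limma adjusted p = 6.2e-05) and HGF, a growth factor, by 1.10 (limma adjusted p = 0.0034), and the other 3 did not pass. Against ACTB, GAPDH and LOC100346936 the call of HGF was lost (0.77, limma adjusted p = 0.070) and FGF10 was lower (-0.96, limma adjusted p = 0.022). Leaving ACTA2 out of the reference genes gave no fibroblast marker higher, with COL1A2 at 0.78 (limma adjusted p = 0.056), and FGF10 and COL14A1 lower (-1.46 and -0.88, limma adjusted p = 0.0014 and 0.015). Leaving LDHA out went the other way. COL1A2, HGF and DCN were then called higher (2.16, 1.65 and 1.51, limma adjusted p = 1.3e-06, 4.6e-05 and 0.0036), while COL14A1 and FGF10 did not pass (0.50 and -0.08). The T cell sum was mostly IFNG, with a mean ratio of 0.107 and 0.108, while CD40LG rose by 1.77 and IL2 fell by 2.05 on the log2 scale (limma adjusted p = 0.0063 and 2.1e-05). Without ACTA2 the call of CD40LG was lost (limma adjusted p = 0.12) and IFNG was called lower (-0.93, limma adjusted p = 0.017). None of the 6 endothelial markers listed was on the array. The part of any of these cell types in the F3 difference was not tested.

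Within each group the level of F3 was then compared with the level of ACTA2 and TAGLN, all against ACTB, GAPDH and LOC100346936. These relations do not use the difference between the groups. The points of a relation share the reference level and the RNA of the rabbit. Relations were computed for all genes with a Ct below 35 in the 9 rabbits of a group, 67 in the control and 74 in the atherosclerotic group, and p-values were adjusted over these 141 relations.

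In the control group F3 was not related to TAGLN beyond the spread between rabbits (Pearson r = -0.06, exact permutation p = 0.88; Spearman rho = -0.08, exact permutation p = 0.84; n = 9). For ACTA2 in the same rabbits Pearson r was -0.35 (exact permutation p = 0.36) and Spearman rho was -0.32 (exact permutation p = 0.41). In the atherosclerotic group r was 0.40 for TAGLN (exact permutation p = 0.29) with a rho of 0.27 (exact permutation p = 0.49). For ACTA2 it was 0.19 (exact permutation p = 0.63) with a rho of 0.15 (exact permutation p = 0.71). The adjusted p of these 4 Pearson relations lay between 0.93 and 0.98.

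Single rabbits set the sign of some of these values. Without the 2 rabbits farthest from the median of TAGLN, r became -0.51 in the control group (without rabbits 13 and 21) and -0.33 in the atherosclerotic group (without rabbits 10 and 14). For ACTA2 it became -0.47 (without control rabbits 19 and 21) and 0.23 (without atherosclerotic rabbits 10 and 20). Rabbit 14 had the highest F3 and the highest TAGLN of the atherosclerotic group, and without it r for TAGLN was 0.07. The rabbits with the lowest TAGLN, 10 and 6, ranked 8 and 2 of 9 for F3.

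**Figure D3:**
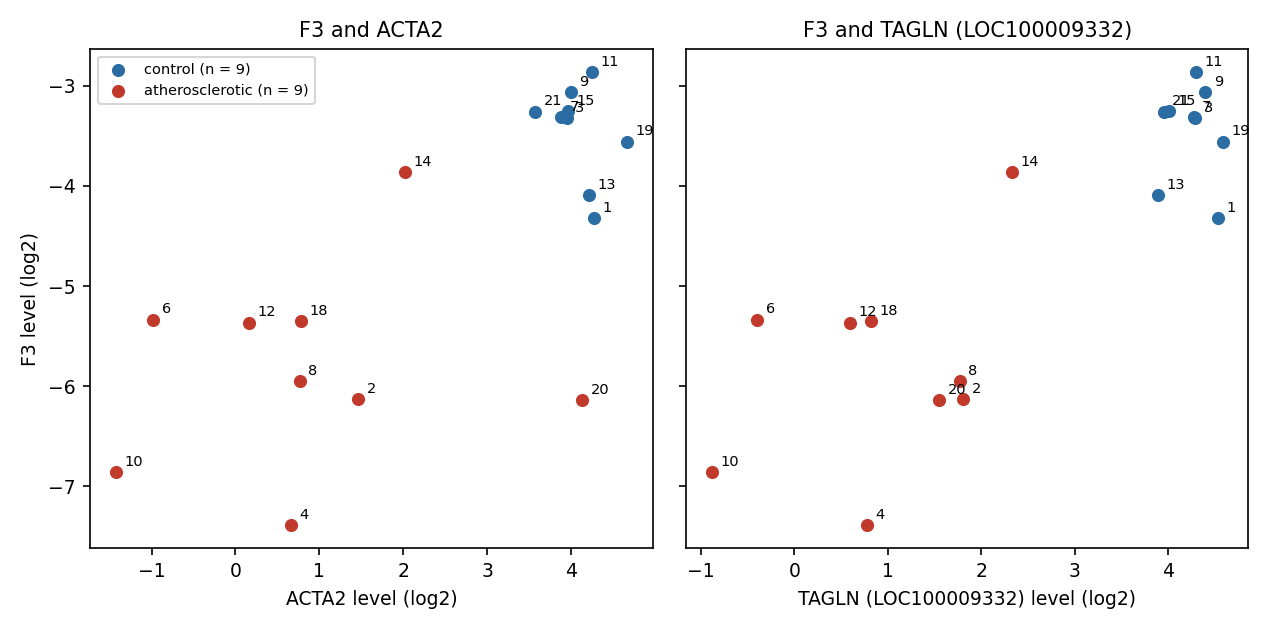
Level of F3 against the level of ACTA2 (left) and TAGLN (right) in each rabbit, all relative to ACTB, GAPDH and LOC100346936 on the log2 scale (points numbered by rabbit). The groups form separate clouds, and within the atherosclerotic cloud TAGLN spans -0.88 to 2.33 with no clear order in F3.

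The signals known to induce tissue factor mostly stood higher in the atherosclerotic group, where F3 was lower. Of 9 inducers on the array 6 rose and 1 fell in limma at an adjusted p under 0.05. The list was chosen with earlier results of these data known, so this count is a description. Among all 84 genes of interest 60.7% were called, 38.1% higher and 22.6% lower. The median log2 fold change of the 9 was 1.77. Over all genes the deposited level gave 32 genes higher and 19 lower. Leaving ACTA2 out of that level gave 22 and 34, leaving LDHA out 47 and 10, and ACTB, GAPDH and LOC100346936 alone 28 and 23.

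TLR4, the receptor for bacterial lipopolysaccharide, rose by 5.30 on the log2 scale (standard error 0.41, limma adjusted p = 1.5e-09). PDGFB, a growth factor for smooth muscle, rose by 4.63 (standard error 0.45), with 2 control wells at the ceiling, and the monocyte chemokine CCL2 by 3.48 (standard error 0.61). With the deposited level TNF was at least 5.05-fold higher, since all control wells were at the ceiling. On the log2 scale this lower limit was 2.34, and it was 2.01 against ACTB, GAPDH and LOC100346936 and 1.51 without ACTA2. CD40LG, the T cell ligand of CD40, rose by 1.77 and VEGFA, the vascular endothelial growth factor, by 1.24, and both calls were lost when ACTA2 was left out of the reference genes (0.95, limma adjusted p = 0.12, and 0.42, limma adjusted p = 0.17). PDGFA, the other chain of the platelet-derived growth factors, was the inducer that fell, by -0.88 (standard error 0.20), and its call was lost with LDHA left out (-0.33, limma adjusted p = 0.14). IL1B, an interleukin 1, had a value of 1.24 that did not pass (limma adjusted p = 0.23) but did without control rabbit 3 (1.95, limma adjusted p = 0.013). IL1A, the other form, was at the ceiling in all 9 control and 7 atherosclerotic rabbits, so no fold is given. It passed when LDHA was left out (limma adjusted p = 0.024) and with no ceiling (limma adjusted p = 0.011). Values of wells at the ceiling move with the reference level, so the call without LDHA is not a reading of IL1A alone. Of the cytokines known to restrain tissue factor in monocytes, IL10 rose by 4.16, with 2 control wells at the ceiling. This value and that of PDGFB are lower limits for the deposited level (4.72 and 4.78 with no ceiling). With ACTA2 left out the values were 3.33 and 3.80. IL4 had 4 control and 5 atherosclerotic wells at the ceiling and did not pass (0.19, limma adjusted p = 0.60). It did when LDHA was left out (0.74, limma adjusted p = 0.039), with the same limit as for IL1A. These roles are known from vascular cells and monocytes, and the part of these genes in the level of F3 was not tested.

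Among the rabbits of a group no inflammatory gene was related to F3 after adjustment. Of 18 inflammatory genes on the array, 11 could be related to F3 among control rabbits and 14 among atherosclerotic rabbits, and the others had wells at the ceiling. No relation passed an adjusted p under 0.05 with the exact permutation test, for Pearson r or Spearman rho. With 9 rabbits only a very strong relation could pass. Even the rho of -0.90 of TGFB1 in the control group did not (exact permutation test, adjusted p = 0.29). Without adjustment, 1 of the 11 had a p under 0.05 for Pearson r among control rabbits and 0 of the 14 among atherosclerotic rabbits, and none did for rho. Among all genes related to F3 the share with an unadjusted p under 0.05 was 4.48% for control and 8.11% for atherosclerotic rabbits. The inflammatory genes had a median r of 0.22 (range -0.17 to 0.71) among control rabbits and 0.23 (range -0.28 to 0.64) among atherosclerotic rabbits. The median over all genes was -0.03 and 0.19.

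In the control group the 3 with the largest r were PTGS2, TLR4 and CCL2. PTGS2, the inducible cyclooxygenase, had r = 0.71 (exact permutation p = 0.031, adjusted p = 0.62, n = 9) and rho = 0.60 (exact permutation p = 0.097). Its level ran from -10.0 in rabbit 1 to -4.20 in rabbit 21. Rabbit 1 also had the lowest F3, and without it r was 0.44. TLR4 had r = 0.62 (exact permutation p = 0.070), a rho of 0.50 (exact permutation p = 0.18) and r = 0.74 without rabbits 7 and 13. CCL2 had r = 0.55 (exact permutation p = 0.11), a rho of 0.67 (exact permutation p = 0.059) and r = 0.73 without rabbits 15 and 21.

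In the atherosclerotic group the 3 largest were CD40LG, STAT3 and PTGS2. CD40LG had r = 0.64 (exact permutation p = 0.069, adjusted p = 0.89, n = 9), a rho of 0.55 (exact permutation p = 0.13) and r = 0.57 without rabbits 12 and 14. STAT3, a transcription factor of cytokine signaling, had r = 0.58 (exact permutation p = 0.10), a rho of 0.30 (exact permutation p = 0.44) and r = 0.07 without the same rabbits. PTGS2 had r = 0.49 (exact permutation p = 0.19), a rho of 0.17 (exact permutation p = 0.68) and r = 0.36 without rabbits 14 and 20. TLR4 and CCL2 had no stable sign here. TLR4 had r = -0.28 and rho = 0.05, with r = 0.29 without rabbit 4. CCL2 had r = -0.11 and rho = -0.32, with r = 0.07 for separate reference genes. Whether these relations differ between the groups was not tested.

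The genes whose pattern was most like that of F3 were ranked by the mean of the r within the control and the r within the atherosclerotic group, over the 62 genes of interest read in every rabbit. The highest was PTGS2, with a mean r of 0.60 (0.71 among control and 0.49 among atherosclerotic rabbits). PLAT, tissue plasminogen activator, followed with 0.56 (0.40 and 0.72). A chemokine listed as LOC100354804 and annotated as similar to CXCL2, which draws neutrophils, had 0.56 (0.76 and 0.36). The median over the 62 genes was 0.08.

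The lowest 3 were CTSK, the collagen-degrading cathepsin K, with a mean r of -0.40 (-0.56 and -0.24), PLAU with -0.37 (-0.48 and -0.25) and TGFB1, a transforming growth factor, with -0.31 (-0.79 and 0.17). In the control group TGFB1 had the lowest p of all 141 relations for Spearman rho (-0.90, exact permutation p = 0.0020, adjusted p = 0.29). Without control rabbits 1 and 11, the lowest and the highest in F3, r for TGFB1 was -0.43. With separate reference genes for F3 and its partner, r in the atherosclerotic group was 0.05 for CTSK and 0.11 for PLAU, above 0 in place of below it.

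Rabbit 14 changed several of these values in the atherosclerotic group. It had the highest level of its group in 19 of the 72 genes of interest compared and the lowest in 0. Rabbit 20 was highest in more of them, 21, and lowest in 13. Rabbit 14 was highest in PLAT at -5.15, against -8.37 to -6.44 in the others. Without rabbit 14 the r of PLAT fell from 0.72 to 0.38 and that of PTGS2 from 0.49 to 0.20. The 6 relations in this group with an unadjusted p under 0.05 for Pearson r (PTK2, WNT2, IGF1, PLAT, FGF10 and WNT5A, named after their values were seen) had r from 0.68 to 0.77. None of the 74 genes had an unadjusted p under 0.05 for Spearman rho.

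**Figure D4:**
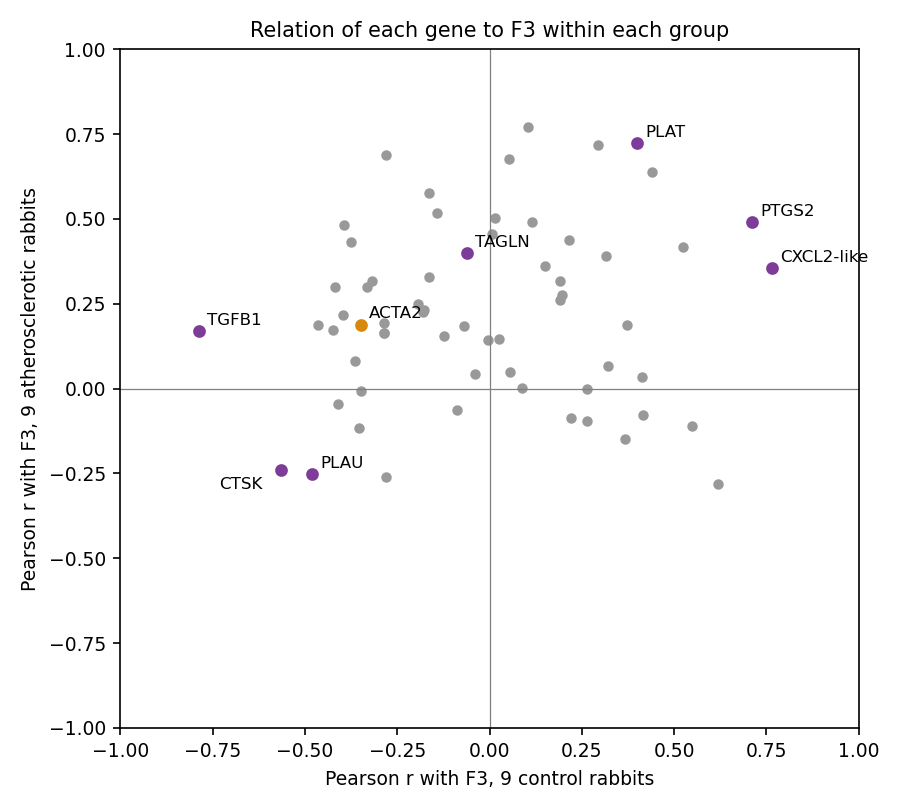
Pearson r of each of 62 genes of interest with F3 in the 9 control rabbits (horizontal) and in the 9 atherosclerotic rabbits (vertical), with the reference gene ACTA2 added in orange. Purple points are TAGLN and the 3 genes with the highest and the 3 with the lowest mean r. PTGS2, PLAT and the CXCL2-like chemokine lie at the upper right, and CTSK and PLAU at the lower left.

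Of 6 other genes of clotting and fibrin removal on the array (FGA, PLG, PLAT, PLAU, PLAUR and VTN), 2 rose, 1 fell and 3 did not pass in limma. The share called among all 84 genes of interest was 60.7%, with 38.1% higher and 22.6% lower. For so few genes these counts lie near the shares of the whole array. Their median log2 fold change was 1.15, beside 0.37 for all genes. Against ACTB, GAPDH and LOC100346936 only, it was 0.82, beside 0.045 for all genes.

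PLAU, urokinase, had a deposited ratio of 0.0213 to 0.0475 (median 0.0350) in control rabbits and of 0.196 to 0.556 (median 0.367) in atherosclerotic rabbits. It rose by 3.37 on the log2 scale (standard error 0.25, limma adjusted p = 7.4e-10), and the groups did not overlap. VTN, vitronectin, an adhesive protein of plasma and matrix, rose by 2.01 (standard error 0.37, limma adjusted p = 8.4e-05), with 2 control wells at the ceiling.

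PLG, the precursor of plasmin, ranged from 0.000985 to 0.00632 in the control group, and 7 of 9 atherosclerotic wells were at the ceiling. Its log2 fold change of -2.87 (standard error 0.43, limma adjusted p = 9.9e-06) therefore rests mostly on upper limits. PLAT, which ranked close to F3 within the groups, did not pass between them. Its ratio was 0.003205 to 0.0211 (median 0.00477) in control rabbits and 0.00432 to 0.0254 (median 0.00611) in atherosclerotic rabbits, for a log2 fold change of 0.29 (standard error 0.41, limma adjusted p = 0.57) that was -0.04 against ACTB, GAPDH and LOC100346936.

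PLAUR, the urokinase receptor, spanned 0.000151 to 0.0658 in control rabbits and 0.00246 to 0.0415 in atherosclerotic rabbits. Its log2 fold change of 2.32 (standard error 1.01) just missed the threshold (limma adjusted p = 0.053) and passed it when LDHA was left out of the reference genes (2.87, limma adjusted p = 0.018). It also passed without control rabbit 1, 3, 7 or 9 or atherosclerotic rabbit 20, where limma adjusted p ran from 0.011 to 0.043. FGA, the fibrinogen alpha chain, was at the ceiling in 7 control and all 9 atherosclerotic rabbits, so no fold is given. It was called lower when ACTA2 was left out (limma adjusted p = 0.046). That call rests mostly on wells at the ceiling, whose values move with the reference level, and is not a reading of FGA.

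**Figure D5:**
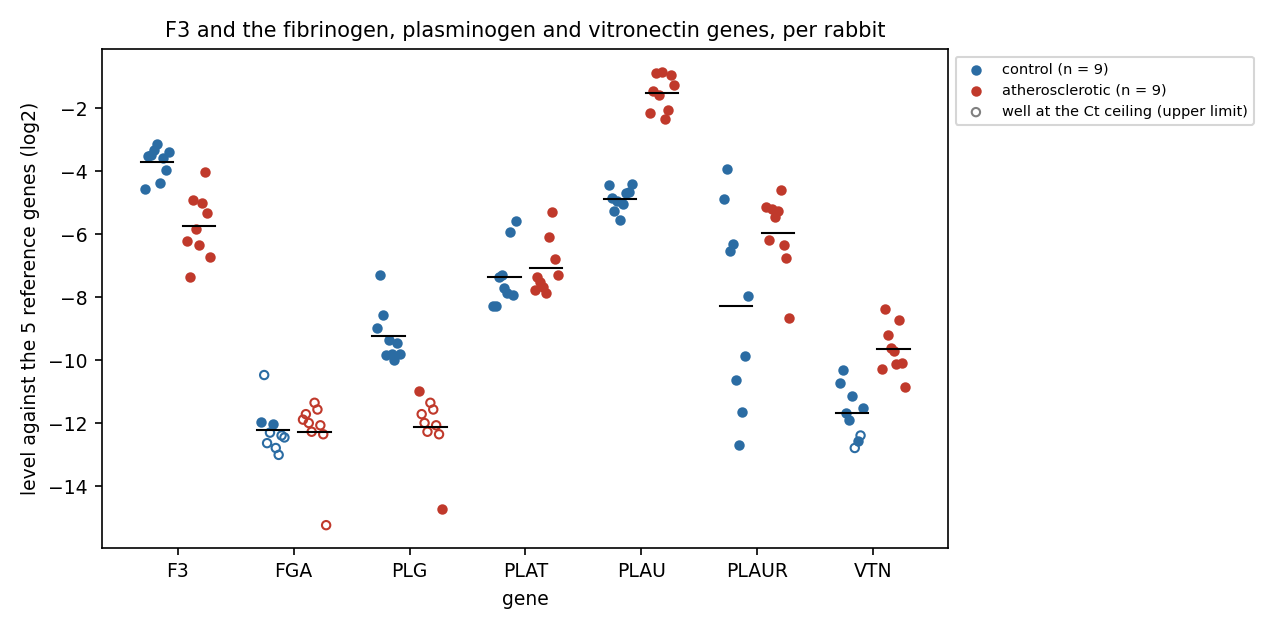
Level of F3 and of 6 genes of clotting and fibrin removal in each rabbit, as log2 of the deposited ratio to the 5 reference genes. Filled points are wells below the Ct ceiling, open points are upper limits at the ceiling, and black lines are group means (n = 9). F3 and PLG are lower, and PLAU and VTN higher, in the atherosclerotic group.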

How the data were processed

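Aortic RNA was isolated with TRIzol, transcribed with the RT2 First Strand Kit and read on a Mx3000P by the authors. Raw Ct per well and, for each gene, the ratio to the 5 reference genes (2 raised to minus deltaCt) were deposited. Recomputing this ratio, with Ct values held at a ceiling of 35 and the geometric mean of the reference Ct, gave differences of at most 5.0e-07. A deposited file of the authors' own fold changes was not used. Groups and rabbit numbers came from the sample titles.

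Groups were compared for all 84 genes of interest in limma (lmFit, eBayes, no covariates) using log2 of the deposited ratio, with Benjamini-Hochberg adjustment at 0.05. Within-group relations used Ct against the mean of ACTB, GAPDH and LOC100346936, in genes with every well of the group below the ceiling. Pearson r and Spearman rho had two-sided exact permutation tests over all 362880 pairings. Adjusting over the 29 relations to smooth muscle and inflammatory genes alone also left no Pearson relation under 0.05 (lowest 0.65). F3 and the lists were chosen with earlier results of these data known. Named genes were F3, the reference genes, the smooth muscle, clotting and inducer lists, the 3 inflammatory genes with the largest r per group, and the 3 genes most and the 3 least like F3. Members of the cell type marker lists are named too, outside this rule and after their values were seen. The inducer list includes the restrainers IL4 and IL10.

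Alternatives were other reference levels, no ceiling (undetermined wells at 40 cycles), a filter of 5 detected rabbits in a group, permutation tests in place of limma, separate reference genes for F3 and its partner, at least 6 detected rabbits for a relation, and leaving out each rabbit. PCR error is part of the spread between rabbits, since no well was repeated. Of 89 accessions, 62 were found in the mOryCun1.1 gene table, used for names only. A clotting gene of the list is not reported here. Scripts were tested on simulated data. Versions were R 4.3.3 with limma 3.58.1, and Python 3.11.15 with scipy 1.17.1, numpy 2.4.6 and pandas 2.3.3, and plots were made in matplotlib 3.10.9.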

Additional observations from a re-analysis of the deposited data

Results flagged for a closer look

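Of 26 groups of 9 values examined (F3, its ratios to the smooth muscle genes, the reference level and the genes of clotting and fibrin removal), 5 held a rabbit far from the others, where chance flags about 1 in 20 groups, or 1.3 here. F3 itself was in none of them. All 5 flags fell on control rabbit 3 or atherosclerotic rabbit 20. The 26 groups share rabbits and reference levels, so they are not independent and the 1.3 is only a rough guide.

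The mean Ct of ACTB, GAPDH and LOC100346936 was 24.73 cycles in control rabbit 3, against 22.33 to 23.07 cycles in the other control rabbits. It was 20.38 cycles in atherosclerotic rabbit 20, against 22.58 to 23.26 cycles in the other atherosclerotic rabbits. Within groups, F3 against these genes was not related to this mean Ct (r = 0.01 in both groups, exact permutation p = 0.97 in each, n = 9). Spearman rho was -0.28 in the control group (exact permutation p = 0.46) and -0.43 in the atherosclerotic group (exact permutation p = 0.25).

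FGA was -10.47 on the log2 scale in control rabbit 3, against -13.00 to -11.97 in the others, from a Ct of 36.91 held at the ceiling. It was -15.23 in atherosclerotic rabbit 20, against -12.35 to -11.35, from a well that gave no Ct. Both are upper limits that move with the reference level. PLG was -14.72 in rabbit 20, against -12.35 to -10.97 in the others. Its Ct was 34.52, below the ceiling, but 7 of the 9 atherosclerotic PLG wells were at the ceiling. The range of the others is thus mostly upper limits. Rabbit 20 also had the earliest reference level, 19.79 cycles, which lowers its values on this scale.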

How the results depend on the processing

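The log2 difference in F3, -2.04 with the deposited level, stayed within 1 pooled SD (0.81) with ACTB, GAPDH and LOC100346936, ACTB alone, LOC100346936 alone, LDHA left out or the mean of detected genes. It moved further to -2.87 with ACTA2 left out, -3.15 with GAPDH alone and -4.58 with LDHA alone. It turned to 0.87 with ACTA2 alone and to 0.94 with TAGLN as the level (chosen after seeing the data), and without rabbit 20 to 1.32 and 1.06 (also chosen after seeing the data). Leaving out each rabbit gave -2.26 to -1.84. ACTA2 and TAGLN were themselves lower in the atherosclerotic group.

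The number of genes called between groups lay between 49 and 57 over 6 alternatives, and between 48 and 54 without each rabbit. Of the 6 clotting and fibrin removal genes, 3 or 4 were called under every alternative, leaving out rabbits included, and of the 11 inducers and restrainers 6 to 9 in the alternatives.

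Of the 4 relations of F3 to smooth muscle genes, none of which passed in the report, 3 changed sign in some alternatives. For ACTA2 in the control group r was 0.058 with the mean of detected genes and 0.68 with no reference level (-0.51 to -0.28 without each rabbit). For ACTA2 in the atherosclerotic group it was -0.11 with the deposited level and -0.25 with the mean of detected genes (-0.014 to 0.42 without each rabbit, below 0 without rabbit 10 or 14). For TAGLN in the control group it was 0.083 with separate reference genes, 0.14 with the mean of detected genes and 0.76 with no reference level (-0.46 to 0.36 without each rabbit, above 0 without rabbit 1 or 21). TAGLN in the atherosclerotic group stayed positive in the 4 alternatives and without each rabbit (0.07 to 0.56). With no reference level, where all values share the amount of cDNA, 1 inflammatory gene passed among control rabbits and 3 among atherosclerotic rabbits, against 0 in every other alternative. The 3 genes most like F3 ranked 3, 2 and 5 with the deposited level and 1, 2 and 4 with separate reference genes, where CD40LG ranked 1 and 9. No paired analysis was possible because the groups share no rabbit numbers.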
